A study of Mus musculus with 10 samples.

Results

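H3K9lc regions at promoters are the listed regions of histone H3 lysine 9 lactylation that the annotation of the deposited table places within 3 kb of a transcription start site. The table of the TGF and siHK1 libraries listed 74751 H3K9lc regions, of which 5070 carried a promoter annotation (6.78%). There were 2546 within 1 kb of a start site, 1267 between 1 and 2 kb and 1257 between 2 and 3 kb. They lay at 3777 genes, and 87.5% of them at protein-coding genes.

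The study asked whether TGF-β, a cytokine that turns fibroblasts into myofibroblasts, and hexokinase 1 (HK1), which catalyses the first step of glycolysis, alter histone lactylation in cardiac fibroblasts. CUT&Tag was performed on primary mouse fibroblasts from the heart. In this assay Tn5 transposase, brought to a mark or factor by its antibody, cuts and tags the DNA nearby for sequencing. The 3 H3K9lc libraries came from control cells (NC), from cells given TGF-β (TGF) and from cells transfected with siRNA against HK1 before TGF-β (siHK1). NC is titled only as a control. The antibody of NC was read from the H3K9lc table its label names, since its title gives none, and the library titled SI is called siHK1 for the same reason. The siRNA given to the TGF cells, if any, is not stated in the labels. Each condition had 1 library, so no difference between conditions was tested. Intervals of ratios below cover counting error only, and those of shares take regions, reads or genes as independent draws.

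Lysine lactylation is made from lactate, the end product of glycolysis, and is removed again by deacylases. It was described as a mark of active genes, alongside acetylation of the same lysine tails. Lysine 9 of histone H3 can also carry acetylation, found at active promoters, or trimethylation, found at silent repeats, imprinted control regions and zinc finger gene clusters.

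Read numbers set the limits of every comparison. The listed regions held 2490853 reads in TGF, 1419023 in siHK1 and, in the table that pairs NC with TGF, 115572 in NC. The promoter regions held 154499 of these reads in TGF (exact 95% interval of the share 6.17% to 6.23%), 84672 in siHK1 (5.93% to 6.01%) and 6411 in NC (5.42% to 5.68%). No RNA was measured in these libraries, so the knockdown of HK1 was not checked here. As for the cell type, the JUN table of the same cells listed a promoter region at 90.9% of 11 fibroblast marker genes, beside 49.6% of all protein-coding genes. It listed 2 of 8 cardiomyocyte markers, but also 5 of 7 endothelial, 4 of 7 macrophage or leukocyte and 3 of 6 smooth muscle markers. NFATC2 promoter regions lay at 63.6% of the fibroblast and 62.5% of the cardiomyocyte markers, beside 35.3% of all protein-coding genes. For SMAD3 the shares were 54.5% and 37.5%, beside 34.3%, and 66.7% for 6 markers of cells outside the heart. The factors thus did not set the fibroblast markers apart alike. The H3K9lc table listed a promoter region at 2 of the 11 fibroblast markers (Ddr2 and Lum), 3 of 8 cardiomyocyte and 1 of 7 endothelial markers. It listed 0 of 7 macrophage or leukocyte, 1 of 6 smooth muscle and 1 of 6 markers of cells outside the heart. Its share of all protein-coding genes was 15.2%.

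Sequences of 5 promoter regions are shown because the results turn on them. They are from the plus strand of GRCm38. The first is the first 300 bases of the Irf7 region, chr7:141263456-141263755, which had the largest difference between the libraries. Capitals mark coding bases of Irf7.
Irf7: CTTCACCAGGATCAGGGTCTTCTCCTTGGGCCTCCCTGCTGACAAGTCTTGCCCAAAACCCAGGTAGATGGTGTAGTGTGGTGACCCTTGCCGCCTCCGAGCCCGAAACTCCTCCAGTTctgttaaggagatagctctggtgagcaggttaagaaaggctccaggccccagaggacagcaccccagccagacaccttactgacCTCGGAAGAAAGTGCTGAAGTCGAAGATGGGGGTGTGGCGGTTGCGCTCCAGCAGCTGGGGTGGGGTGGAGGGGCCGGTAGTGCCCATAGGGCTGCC
The next pair comes from imprinted genes, the central 300 bases of the H19 upstream region, chr7:142580349-142580648, and of a Peg13 region, chr15:72808932-72809231. They stand for the loss and the gain in siHK1 within that group of genes. Capitals mark CG dinucleotides, of which there are 11 and 9.
H19: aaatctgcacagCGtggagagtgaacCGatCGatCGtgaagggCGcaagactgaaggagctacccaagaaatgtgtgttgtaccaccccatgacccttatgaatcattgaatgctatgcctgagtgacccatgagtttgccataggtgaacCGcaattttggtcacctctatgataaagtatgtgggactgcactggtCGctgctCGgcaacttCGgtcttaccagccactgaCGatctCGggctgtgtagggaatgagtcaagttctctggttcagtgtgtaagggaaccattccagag
Peg13: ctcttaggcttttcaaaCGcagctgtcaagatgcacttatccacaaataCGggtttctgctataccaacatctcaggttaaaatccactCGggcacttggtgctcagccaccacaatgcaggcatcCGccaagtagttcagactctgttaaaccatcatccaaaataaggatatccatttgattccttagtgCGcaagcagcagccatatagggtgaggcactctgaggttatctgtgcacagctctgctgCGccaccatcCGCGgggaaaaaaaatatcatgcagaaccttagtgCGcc
The last pair is from the promoter regions of highest level. In the Oasl1 region, chr5:114922448-114922695, and the Litaf region, chr16:10975068-10975319, capitals mark the longest run they share, 27 bases.
Oasl1: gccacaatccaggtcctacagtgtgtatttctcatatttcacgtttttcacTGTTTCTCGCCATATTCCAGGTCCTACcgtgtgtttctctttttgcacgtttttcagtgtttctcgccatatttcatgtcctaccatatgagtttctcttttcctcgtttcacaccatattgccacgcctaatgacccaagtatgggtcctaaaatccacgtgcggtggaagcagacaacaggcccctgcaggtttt
Litaf: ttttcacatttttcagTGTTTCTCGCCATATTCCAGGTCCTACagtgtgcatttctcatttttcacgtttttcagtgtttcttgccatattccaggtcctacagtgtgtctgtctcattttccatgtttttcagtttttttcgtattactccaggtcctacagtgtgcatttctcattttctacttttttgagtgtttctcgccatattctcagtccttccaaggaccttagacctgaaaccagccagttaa

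Promoters were a small part of the H3K9lc list. For comparison, 15.5% of sequenced bases of the genome lie within 3 kb of an annotated start site, against 6.78% of the listed regions and 6.44% of their length. The promoter regions were narrow, with a median of 340 bp against 364 bp for the other regions. Their median level was 13 reads in TGF and 7 in siHK1, or 35.6 and 19.5 reads per kb. The other listed regions had medians of 40.5 and 22.2 reads per kb. Promoter regions were thus somewhat lower than the other regions in both libraries.

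Within the promoter window the regions were spread out and were most frequent at start sites. The start site lay inside the region in 875 cases (17.3%). A further 517 regions lay within 500 bp upstream and 544 within 500 bp downstream, while the remaining bins of 500 bp held 266 to 356 each. The median level of regions across a start site was 40.1 reads per kb in TGF and 18.9 in siHK1. Regions 2500 to 3000 bp away, just inside the annotation limit, numbered 636 with a median of 36.2 reads per kb in TGF. Regions beyond 3000 and up to 3500 bp away, just outside it, numbered 628 with a median of 36.3.

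**Figure D1:**
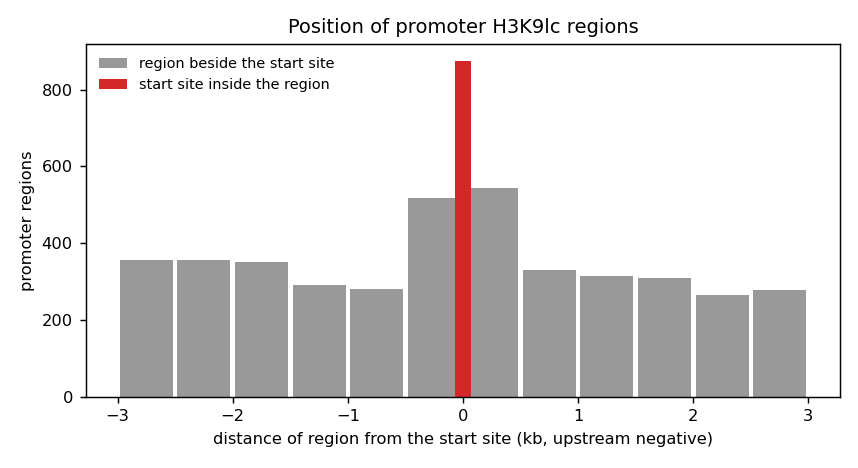
Number of promoter H3K9lc regions (vertical axis) by distance from the start site in kb (horizontal axis, bins of 0.5 kb, upstream negative). The 875 regions with the start site inside them form the red bar, and the bins next to it hold 517 and 544 regions.

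The sequence under the promoter regions differed from that under the rest of the list. CpG-rich sequence, here at least 50% G and C with an observed over expected CG ratio of at least 0.6, made up 16.8% of the promoter regions and 3.77% of the other regions. Among 18689 promoter regions of the JUN table it was 37.1%. At least 50% of the bases were masked as repeats in 22.9% of the promoter regions, in 58.2% of the other H3K9lc regions and in 3.07% of the JUN promoter regions. H3K9lc promoter regions thus stood between the rest of the H3K9lc list and the JUN promoters on both counts.

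The letters of 3 short motifs were counted on either strand of the central 200 bp: TGANTCA for AP-1, the dimer that holds c-JUN, CAGAC for SMAD and GGAAA for NFAT. The AP-1 letters were in 5.38% of the promoter regions, in 6.33% of the other H3K9lc regions and in 17.5% of the JUN promoter regions. The SMAD letters were in 41.7%, 43.3% and 42.1%, and the NFAT letters in 38.4%, 41.1% and 43.6%. A match is a description of the letters and not a binding site.

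Which genes carried an H3K9lc promoter region was uneven between gene groups. Over all 21900 protein-coding genes, 3322 had at least 1 (15.2%, 14.7 to 15.7). The list of matrix and fibrosis genes had 5 of 45 (11.1%, 3.71 to 24.1), an interval that holds the share of all genes: Col4a1, a basement membrane collagen, Fbln1, Loxl4, Lum and Vcan. TGF-β signalling had 1 of 37 (2.70%, 0.068 to 14.2), Eng, a TGF-β co-receptor, with 8 reads in TGF and 7 in siHK1. In the JUN table all 37 of the TGF-β signalling genes had a promoter region (100%), and 88.9% of the matrix genes, beside 49.6% of all protein-coding genes.

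Among 12 genes central to the study, 3 had a promoter region. Hk1 had 2, Axin2, a feedback inhibitor of Wnt signalling, had 1 and Irf7 had 1. Acta2, Postn, Col1a1, Col1a2, Col3a1, Lox, Smyd3, Cdk1 and Slc40a1 had none. Col3a1 was the nearest gene to 14 listed regions outside the promoter window and Smyd3 to 14. Postn was nearest to 5, Col1a2 to 4, Lox to 3, Cdk1 to 2 and Slc40a1 to 1. Acta2 and Col1a1 had 0.

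The remaining lists were also small. Contractile genes had a promoter region at 6 of 22, Cnn1, Flna, Myh9, Mylk, Palld and Zyx, glycolysis and lactate genes at 3 of 38, Gapdh, Hk1 and Pdk1, and cell cycle genes at 1 of 35, Cdkn2a. Interferon and innate sensing genes had a region at 6 of 47, Cgas, Ifi44, Ifngr1, Irf7, Mx1 and Oasl1. Enzymes that add or remove histone acyl groups had a region at 4 of 32, Acss2, Hdac2, Hdac6 and Sirt5. Wnt and Hippo genes had a region at 3 of 43, AP-1 and NFAT factors at 3 of 29, cardiac fibroblast transcription factors at 6 of 32 and housekeeping genes at 5 of 20. None of these shares had an exact interval above the 15.2% of all protein-coding genes. The interval of the cell cycle genes lay below it (0.072 to 14.9), as did that of the TGF-β signalling genes.

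Several large gene families stood above that share. Hox genes, the homeobox factors that pattern the body axis, had a promoter region at 27 of 43 (62.8%, 46.7 to 77.0). Their JUN share was 9.30%. Zinc finger genes with Zfp symbols, most of which encode DNA-binding repressors, had a region at 119 of 403 (29.5%, 25.1 to 34.2), and vomeronasal receptor genes, which detect pheromones, at 78 of 355 (22.0%, 17.8 to 26.6). Olfactory receptor genes had a region at 145 of 1111 (13.1%, 11.1 to 15.2) and histone genes at 17 of 141 (12.1%, 7.18 to 18.6). Ribosomal protein genes had a region at 8 of 102 (7.84%, 3.45 to 14.9), an interval below the share of all protein-coding genes. The JUN shares were 57.6% for Zfp genes, 1.13% for vomeronasal and 2.70% for olfactory receptors, and 71.6% for ribosomal protein genes. The SMAD3 and NFATC2 shares were 9.90% and 12.4% for olfactory receptors, 7.61% and 11.3% for vomeronasal receptors and 9.30% and 11.6% for Hox genes. These families lay below the SMAD3 and NFATC2 shares of all protein-coding genes, 34.3% and 35.3%.

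The densest stretch of promoter regions was at the clustered protocadherins, a group chosen here after its values were seen. These genes encode cell adhesion proteins that give neurons their surface identity, and each variable exon has a start site of its own. Of 57 such genes, 50 had an H3K9lc promoter region (87.7%, 76.3 to 94.9), against 4 with a JUN promoter region (7.02%). The alpha cluster had 10 of 14, the beta cluster 21 of 22 and the gamma cluster 19 of 21. Their 67 regions held a median of 40 reads in TGF, from 4 to 174, and of 22 in siHK1, from 1 to 89. The log2 ratio of siHK1 to TGF had a median of -0.02 over them, and of 59 with enough reads none was at least 2-fold lower or higher, where 5.42% of all listed regions were lower and 3.91% higher.

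Imprinted genes, expressed from only the maternal or the paternal copy, were a further group chosen after its values were seen. Of 40 listed, 25 had a promoter region (62.5%, 45.8 to 77.3), 14 of them with a region across a start site. Their JUN share was 57.5%. The 49 regions had a median of 49.2 reads per kb in TGF and 27.5 in siHK1, above the medians of 35.6 and 19.5 over all promoter regions. Among 38 germline and meiosis genes, which somatic cells keep silent by promoter methylation, 13 had a promoter region (34.2%, 19.6 to 51.4), with a median of 47.8 reads per kb in TGF. This list too was chosen with the values known.

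**Figure D2:**
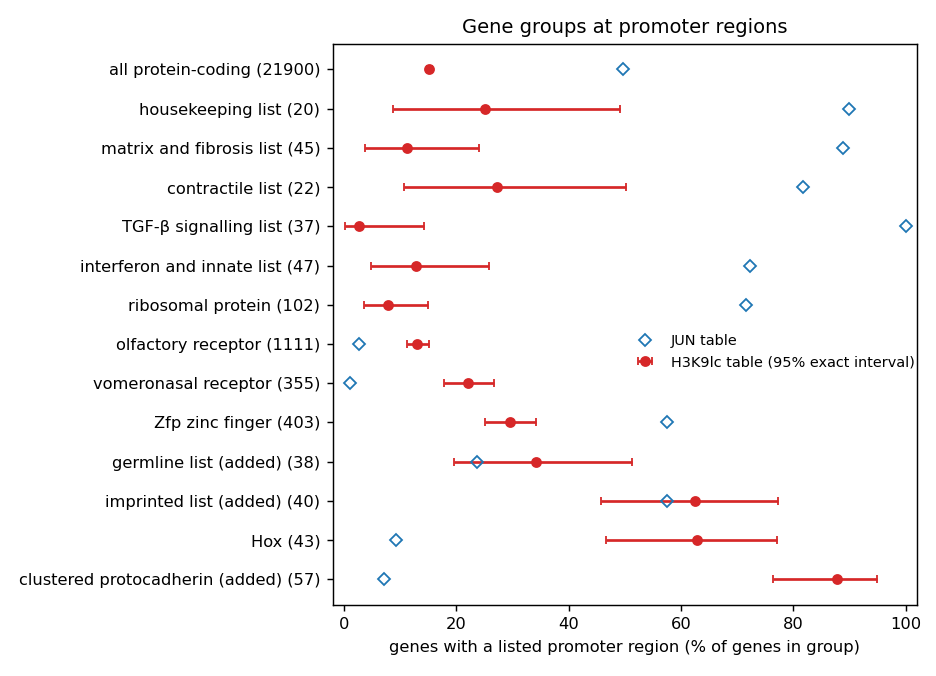
Share of the genes of each group, in percent (horizontal axis), that had at least 1 promoter region in the H3K9lc table (red points with exact 95% intervals) or in the JUN table (blue diamonds). The number of genes is in brackets; clustered protocadherin, Hox and imprinted genes have the highest H3K9lc shares (87.7%, 62.8% and 62.5%), while the TGF-β signalling list has 2.70%.

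The effect of HK1 knockdown was read from the log2 ratio of siHK1 over TGF after both libraries were brought to equal totals over all listed regions. A general loss of the mark therefore cannot be seen in this ratio. The median ratio over the 5070 promoter regions was -0.11, with quartiles of -0.71 and 0.50. Over the other 69681 regions it was -0.11 as well, with quartiles of -0.64 and 0.41, and the difference of the medians was 0. This is a description of these 2 libraries and no test of the knockdown.

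A region was called when it differed at least 2-fold and had a mean scaled count of at least 10. Of 2431 promoter regions with that count, 148 were called lower in siHK1 (6.09%, 5.17 to 7.11), beside 5.42% of all listed regions. There were 115 called higher (4.73%, 3.92 to 5.65), beside 3.91% of all listed regions. Both shares were close to those of the whole list. The split rests on the scaling: on unscaled counts, 1071 promoter regions were lower and 4 higher, and their median ratio was -0.89. The regions called lower had a median of 26 reads in TGF and 6 in siHK1, and those called higher 9 and 14. Among the 1166 promoter regions other than Irf7 with a mean scaled count of at least 20, the ratio ran from -1.90 to 1.42.

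Peak marks of the table give another view of the same libraries. A peak was marked in TGF alone at 2785 promoter regions (54.9%), in siHK1 alone at 1377 (27.2%), in both at 896 (17.7%) and in neither at 12. The median ratio was -0.60 for those marked in TGF alone, 1.07 for those in siHK1 alone and 0.07 for those in both. The marks use the same reads as the ratio, so these 3 medians are a description. Of the 857 marked in both with enough reads, 7 were called lower (0.82%) and 10 higher (1.17%), beside 42 (0.30%) and 156 (1.10%) of 14195 other regions marked in both.

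The ratio varied with the kind of promoter region. Its median was -0.17 within 1 kb, 0.00 between 1 and 2 kb and -0.14 between 2 and 3 kb. Regions across a start site had a median of -0.32, with 40 of 480 called lower (8.33%, beside 5.42% of all listed regions) and 11 called higher (2.29%, beside 3.91%). CpG-rich promoter regions had -0.26 and repeat-masked ones -0.09. CpG-rich regions outside promoters had -0.11.

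Overlap with JUN went with a lower ratio at promoters. A JUN region overlapped 1047 of the promoter regions by at least 1 bp (20.7%), against 4.85% of the other H3K9lc regions. The median ratio was -0.33 in the overlapping promoter regions and -0.05 in the rest. The overlapping regions had 56 of 517 called lower (10.8%) and 14 higher (2.71%), beside 5.42% and 3.91% of all listed regions. The rest had 92 of 1914 lower (4.81%) and 101 higher (5.28%). In regions with a mean scaled count of at least 20 the medians were -0.05 and -0.04, and below that count -0.49 and -0.08. The calls at a mean of at least 20 were 10 of 232 lower (4.31%) with a JUN region and 15 of 935 (1.60%) without, and 1 and 6 higher. The share of all listed regions at that minimum is not given here, so these counts are a description. Among the other H3K9lc regions the medians were -0.09 with a JUN region and -0.11 without. Promoter regions that overlapped SMAD3 or NFATC2 had medians of -0.19 and -0.18, against -0.08 and -0.09 for the rest. The overlapped factor regions themselves had medians of 0.04 for JUN, 0.55 for SMAD3 and -0.17 for NFATC2. SMAD3 regions overlapped 14.9% of the promoter regions, NFATC2 regions 13.6% and at least 1 of the 3 factors 26.9%, against 5.89%, 6.06% and 11.2% of the other H3K9lc regions.

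**Figure D3:**
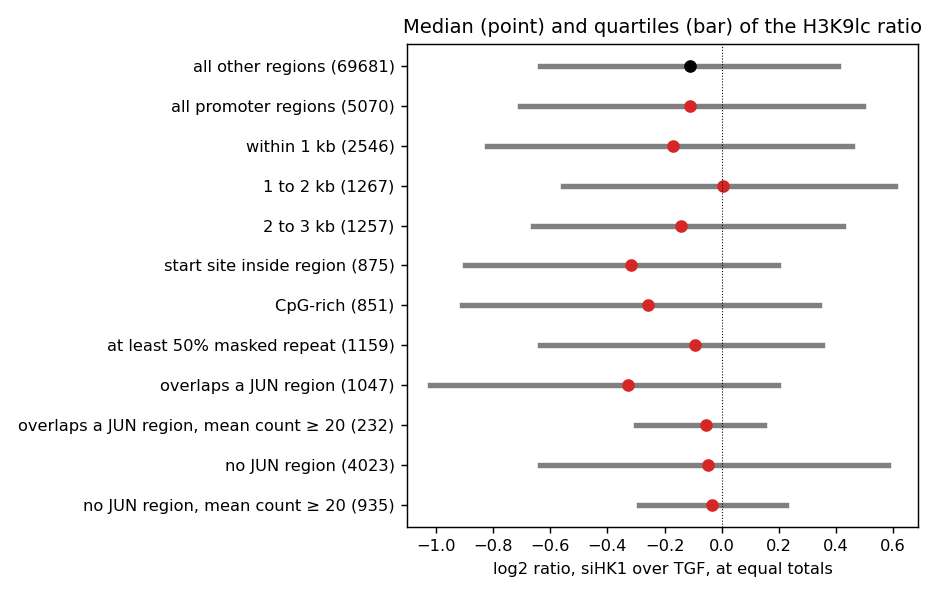
Median (point) and quartiles (bar) of the log2 ratio of siHK1 over TGF at equal totals, for the other H3K9lc regions (black) and for classes of promoter regions (red), with the number of regions in brackets. The medians for a start site inside the region (-0.32) and for JUN overlap (-0.33) are the lowest, and the difference by JUN overlap narrows to -0.05 against -0.04 at a mean scaled count of at least 20.

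Irf7 stood apart from every other region. It encodes interferon regulatory factor 7, a transcription factor of the antiviral response. The region, chr7:141263456-141264145, is 690 bp long and lies 986 bp downstream of an annotated start site. It held 1 read in NC, 3301 in TGF and 4 in siHK1. The TGF library was thus high and the others near the floor. The log2 ratio of siHK1 over TGF was -8.75, with a counting interval of -10.75 to -7.52. At 4784 reads per kb it ranked 2 among the promoter regions in TGF, and it held 2.14% of all their TGF reads.

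No other region in the table came near this ratio. Among all 22058 regions with a mean scaled count of at least 20, promoter or not, the next lowest was -2.03, in an intron of Myrip with counts of 45 in TGF and 6 in siHK1. The highest was 2.05, in an intron of Sec31a with 11 and 27. Irf7 was the only 1 of the 22058 with a log2 ratio of -3 or less.

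The Irf7 region had further features that can be read from the coordinates. Coding bases of the gene lay in 2 stretches within it, chr7:141263456-141263574 and chr7:141263659-141264048, together 509 of its 690 bases. Its first base is a coding base, as the capitals at the start of the printed sequence show. Whether that coding stretch begins there or runs on beyond the region cannot be read from this sequence. It was the only H3K9lc region listed at Irf7 in either table. JUN had 1 region at Irf7, chr7:141266174-141266521, across another annotated start site further upstream, with 16 reads in TGF and 7 in siHK1. SMAD3 had 1, chr7:141264431-141264790, with 8 and 2, and NFATC2 had none. Neither overlapped the H3K9lc region. The value rests on 1 TGF library. In other experiments the study used a vector with human IRF7 in cultured fibroblasts and one with mouse Irf7 in mice. Whether these reads came from chromatin or from other Irf7 DNA was not tested.

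**Figure D4:**
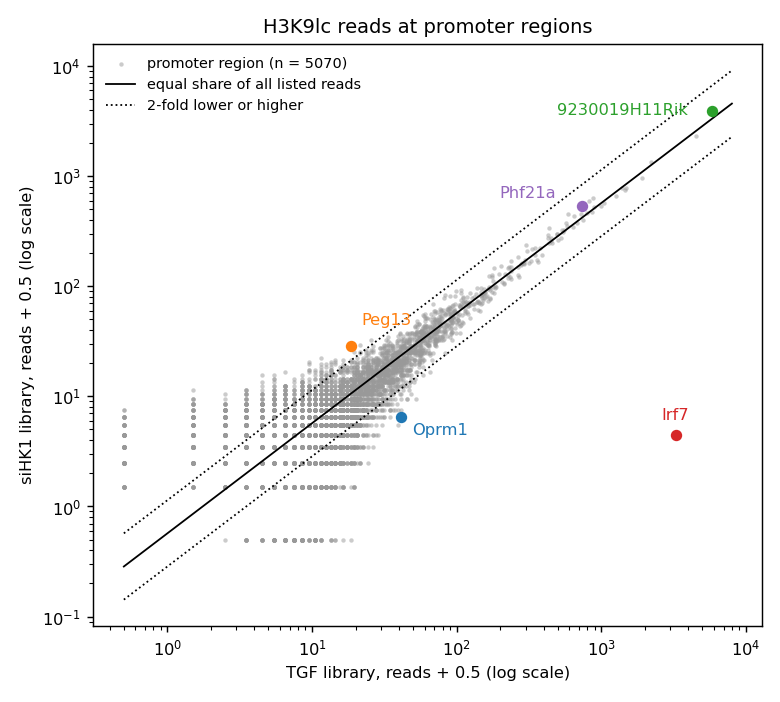
Reads of each promoter H3K9lc region in the TGF library (horizontal axis) and the siHK1 library (vertical axis), both plus 0.5 on log scales; the solid line marks an equal share of all listed reads and the dotted lines a 2-fold difference. Irf7 (3301 and 4 reads) lies far below the cloud that holds the other promoter regions, and the spread of the cloud widens at low counts.

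The other promoter regions with the lowest ratios, at a mean scaled count of at least 20, had at most 52 reads in TGF. Oprm1, the μ-opioid receptor, had 41 reads in TGF and 6 in siHK1, a log2 ratio of -1.90 (-3.49 to -0.72). Amn1 had 41 and 7, and Kdm1a, which encodes the histone demethylase LSD1, had 52 and 9 (-1.68, -2.93 to -0.68). Pdcd10, a cerebral cavernous malformation gene, had 39 and 7, and Cmtm7 had 45 and 9. Zfp809, a repressor of retroviral sequences, had 45 and 9, and Zfp935 had 48 and 10. The 7 were chosen for their low ratios, so that their intervals lie below 0 is a description. All but Oprm1 overlapped a JUN region, where 232 promoter regions with that mean count did and 935 did not. At the JUN region of Kdm1a there were 294 reads in TGF and 265 in siHK1.

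The highest ratios were smaller. A region at Peg13, an imprinted non-coding RNA inside an intron of Trappc9, had 18 reads in TGF and 28 in siHK1, a log2 ratio of 1.42 (0.54 to 2.39). Gm20740 followed with 21 and 29, Zfp963 with 19 and 25, and Rdm1 with 16 and 21. Gm3604 had 25 and 32, Ankrd44 21 and 25, Gm5165 18 and 21 and Ces2h 21 and 24 (0.98, 0.10 to 1.92). Of these 8, only Ankrd44 overlapped a JUN region. The other regions at Peg13 had ratios of -0.11 and 0.48, with intervals that included 0.

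Hk1, the gene targeted by the siRNA, had 2 promoter regions. The region at chr10:62320098-62320896, at -1705 bp from a start site, had 0 reads in NC, 26 in TGF and 4 in siHK1, a ratio of -1.80 (-3.87 to -0.36). The region at chr10:62365207-62365724, at -2933 bp from another start site, had 0, 15 and 9, a ratio of 0.07 (-1.30 to 1.36). The latter interval gives no direction, and a mark on chromatin does not measure the amount of HK1. Axin2 had 1, 9 and 3 reads (-0.71, -3.29 to 1.23). Cdkn2a, which encodes the cell cycle inhibitors p16 and p19, had 0, 19 and 3 (-1.73, -4.25 to -0.09).

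Enough reads for a call were present at 2 of 5 regions of the matrix list, 3 of 10 of the contractile list and 3 of 7 of the cardiac fibroblast factor list. The interferon and innate list had 7 of 9 and the imprinted genes 41 of 49. The highest region of the matrix list, at Lum, a keratan sulphate proteoglycan, had 0, 26 and 9 reads (-0.70, -1.997 to 0.42). At Rcan1, an inhibitor of calcineurin, it had 2, 35 and 11 (-0.84, -1.98 to 0.15). Hand1, a cardiac bHLH factor, had 14 reads in TGF and 20 in siHK1 (1.29, 0.27 to 2.42), the only region of the cardiac fibroblast factor list called higher. Hdac2, a deacetylase, had 14 and 15, and Mylk, the myosin light chain kinase, 37 and 22. Gusb had 20 and 15, Gsk3b 9 and 6 and Eng 8 and 7. Tie1, an endothelial receptor, had 64 and 28, Ryr2 5 and 6, Cnn1 3 and 5 and Rbfox3, a neuronal splicing factor, 20 and 11 at its highest region. The intervals of Hdac2, Mylk, Gusb, Gsk3b, Eng, Tie1, Ryr2 and Cnn1 and of this Rbfox3 region all included 0. Intervals above 0 were found at a further Rbfox3 region with 2 and 10 reads (2.79, 0.90 to 6.36) and at a Ywhaz region with 0 and 5, both chosen after their values were seen.

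Imprinted genes as a group showed no common direction. The median ratio of their 49 regions was 0.00, with 24 below 0 and 25 above. The H19 upstream region, chr7:142580089-142580907, had 4 reads in NC, 58 in TGF and 15 in siHK1 (-1.12, -2.07 to -0.30). A smaller region nearby had 8 and 10. Kcnq1ot1, the paternal antisense RNA of the Kcnq1 domain, had 53 and 48 reads across its start site (0.66, 0.07 to 1.26, above 0 only after scaling), and Magel2 had 19 and 3 at 1 of 2 regions (-1.73, -4.25 to -0.09). Igf2, a fetal growth factor, had 105 and 64 at its highest region (0.10, -0.37 to 0.56), and Meg3 had 77 and 44 (0.00, -0.56 to 0.56). Of the 49 intervals, 2 lay below 0 and 2 above. At germline genes the median ratio was 0.05, with 9 regions below 0 and 10 above. Of their 19 intervals 4 lay below 0 and none above, beside 3.93% below and 4.75% above over all promoter regions, and of 15 regions with enough reads 2 were called lower and 1 higher (beside 5.42% and 3.91% of all listed regions). Stag3, a meiotic cohesin subunit, had 3 reads in NC, 41 in TGF and 9 in siHK1 across its start site (-1.34, -2.60 to -0.31). M1ap had 1, 38 and 8 (-1.40, -2.75 to -0.31), while Tdrd9, a helicase of the piRNA pathway, had 6 regions with ratios from -0.86 to 0.65.

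**Figure D5:**
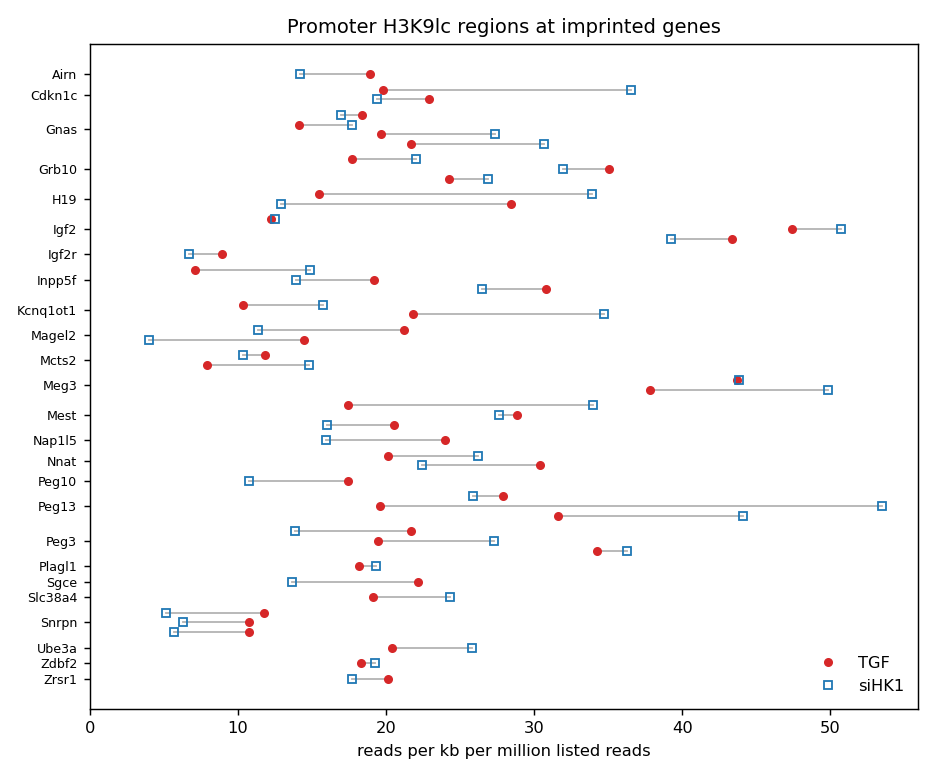
Level of each promoter H3K9lc region at 25 imprinted genes, as reads per kb relative to the listed reads of its library (horizontal axis), in TGF (red points) and siHK1 (blue squares), with a grey line joining the 2 values of a region. Regions of the same gene are stacked from lower to higher coordinate; of the 49 regions, 24 are lower and 25 higher in siHK1 by their log2 ratio.

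Gene families with many promoter regions had widely overlapping ratios, and no difference between them was tested. Their calls are read against 5.42% lower and 3.91% higher over all listed regions. Zfp genes had 191 regions with a median of 58.3 reads per kb in TGF and a median ratio of -0.11, with 8 of 144 called lower (5.56%) and 4 higher (2.78%). The highest, at Zfp979, had 169 and 91 reads. Hox genes had 38 regions with a median ratio of 0.15, with 2 of 19 called lower and 2 higher (10.5% each). Hoxc12 had 81 and 77 reads (0.73, 0.27 to 1.21), a ratio above 0 only after scaling. Vomeronasal receptor genes had 104 regions with a median ratio of -0.37, with 67 of them below 0 and 5 of 50 called in each direction (10.0%), and olfactory receptor genes 171 regions with -0.18, with 6 of 65 called lower (9.23%) and 1 higher (1.54%).

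Regions of the same gene did not always go together. At the 904 genes with 2 or more promoter regions, the median range of the ratio within a gene was 1.02 (quartiles 0.48 and 1.76). All regions of the gene had the same sign at 369 of them (40.8%). With a median of 13 reads per promoter region in TGF, counting error is wide for most single regions.

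Among the promoter regions of highest level, besides Irf7, were several in masked repeats. The region near 9230019H11Rik, with 5855 reads in TGF and 3887 in siHK1, was masked over its whole length, and a region at Mir101c, with 153 reads in NC, 2209 in TGF and 1354 in siHK1, over 95.9%. A region at Phf21a had 122, 741 and 538. Litaf had 38, 728 and 450 and Oasl1 28, 643 and 437; the repeat in their sequences is known from the pericentromeric satellite of the mouse. Slc45a1 had 22, 490 and 296. All of these had ratios from 0.08 to 0.35, close to equal shares.

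The 50 highest promoter regions by reads per kb held 27.3% of the promoter reads in TGF and 27.1% in siHK1. At least 50% of the bases were masked in 14 of them. JUN, SMAD3 and NFATC2 regions all overlapped 34 of the 50 (68.0%), against 7.91% of all promoter regions. Sfi1, a centrin-binding protein gene, had 17 promoter regions with 60 to 1387 reads in TGF, Sp140 had 8 and Sp110 7. Ratios at the 17 Sfi1 regions ran from -0.27 to 0.29. How reads that map to several places were treated is not given in the sources used here, so the level of a repeated region may belong to other copies.

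The question of what TGF-β itself changed was addressed at 2960 promoter regions whose coordinates were the same in both H3K9lc tables. The TGF counts of these regions were equal in both tables, as they come from the same library. The match was not neutral: 13.3% of the matched regions were marked as a peak in siHK1, against 89.0% of the 2110 unmatched, and their median ratio of siHK1 over TGF was -0.55 against 0.64. All 2960 were marked as a peak in TGF and only 41 in NC, so the set was selected for TGF signal and TGF over NC is given as a description. The matched regions held 3220 reads in NC and 90672 in TGF. At equal totals this is a log2 ratio of 0.49 in summed reads, against 0.12 for the other matched regions, where 1 region alone held 7656 of 62452 NC reads. Without the Irf7 region it was 0.44.

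Single promoter regions could rarely be read in NC. NC had 0 reads at 1778 of the 2960 (60.1%), 1 to 4 at 1077 and 5 or more at 105. At equal totals 1 NC read counts as 10.5 and 1 TGF read as 0.525. The median log2 ratio of TGF over NC was 3.06, a value set by the regions with 0 in NC. It was 0.05 among regions with a mean scaled count of at least 20. Of 878 regions with a mean scaled count of at least 10, 156 were called higher in TGF (17.8%), beside 18.8% of the whole table, and 107 lower (12.2%), beside 18.2%. Among all regions with the same coordinates, selected in the same way, 3234 of 15625 were higher and 1627 lower, which puts the promoter shares below the matched set for higher calls and above it for lower calls. Of the 156, 65 had no NC read. This split too rests on the scaling, with 1109 higher and 0 lower on unscaled counts, and 370 higher and 12 lower when totals were set equal over regions marked in both libraries.

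Against a floor of 3 NC reads per library, 13 of the 1778 promoter regions without an NC read were higher in TGF, beside 219 of 24693 such regions over all with the same coordinates, a like share. The region at Igf2 had 105 TGF reads, at least 1.75-fold higher, and those at Tiam1, an activator of Rac, 96, Zfp781 93 and Ugt1a1, a bilirubin-conjugating enzyme, 85, at least 1.60-, 1.55- and 1.42-fold. These bounds leave out the counting error of the TGF reads. With it, the lower limits of the log2 ratio were 0.48, 0.35, 0.30 and 0.17. Irf7 had 1 NC read and a log2 ratio of 7.30 (4.89 to 12.67). The lowest ratios of TGF over NC were at Ggps1 with 2 reads in NC and 6 in TGF, Cdk16 with 3 and 10, and Igf2r, Olfr350 and Mir10b with 2 and 7 each. Of these 5 intervals, only that of Cdk16 lay below 0 (-4.54 to -0.09). Phf21a had a log2 ratio of -1.72 (-1.999 to -1.43) and the Mir101c region with NC reads -0.47 (-0.71 to -0.23). Both were lower in TGF only after scaling, as they had 741 reads in TGF against 122 in NC, and 2209 against 153. Litaf (-0.06) and Oasl1 (0.20) had intervals that included 0.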

How the data were processed

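H3K9lc CUT&Tag libraries of control (NC), TGF-β-treated (TGF) and siHK1 plus TGF-β-treated (siHK1) mouse cardiac fibroblasts were compared, with 1 library per condition. The JUN, SMAD3 and NFATC2 tables of TGF and siHK1 served for overlap. Of 10 libraries, the one titled TGF without an antibody was left out. The deposited tables list merged regions with raw read counts per library, made by the authors. They also hold deposited normalized log2 values per library, used only as an alternative scaling, and peak marks of 0 or 1. Columns of the authors' own comparisons (log ratios, standard errors, p-values, calls) were not used. The submitters' processing notes name BWA 0.7.12 and mm10, whereas the methods name Bowtie2, MACS2, GRCm39 and spike-in DNA. Transcripts of promoter regions had the same coordinates in GENCODE for GRCm38 in 99.8% of 4285 cases, so GRCm38 was used.

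Counts were scaled to equal totals over all listed regions, and log2 ratios were taken with 0.5 added to each scaled count. A call needed a 2-fold difference and a mean scaled count of 10. Intervals of ratios are exact conditional binomial intervals, those of shares are Clopper-Pearson, at 95%. Intervals of ratios cover counting error only, and those of shares treat regions, reads or genes as independent draws; neither covers the spread between cultures. No p-value was computed. PCR duplicates, if any remained, are not independent molecules. Scripts were tested on simulated data. The sequence of 1 region is not reported here.

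Regions named were the 8 with the largest ratio of siHK1 over TGF in each direction at a mean scaled count of at least 20, the 8 of highest level at least 200 bp wide, all promoter regions of 12 genes of the study, the 5 at each end of TGF over NC, and the highest of each gene list. Others, among them those at imprinted, germline, protocadherin, Hox and Zfp genes, were chosen after their values were seen. The members and gene lists were chosen with earlier results of these data known. Alternatives covered the scaling, the pseudocount, the count minimum, the fold, the promoter window, the peak marks and the overlap. Python 3.11.15, pandas 2.3.3 and scipy 1.17.1 were used.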

Additional observations from a re-analysis of the deposited data

How the results depend on the processing

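No paired analysis was possible because every comparison set 1 library against 1 other, and for the same reason no replicate could be left out. Of 90 comparisons of a setting over 11 results, 40 moved by less than the counting interval or 1.5 times and 50 moved more; the cause was not tested. The median ratio of siHK1 over TGF was -0.89 without scaling, -0.22 with totals equal over regions marked in both libraries, -0.18 on the deposited log2 values, -0.040 at a mean scaled count of at least 20 and -0.17 within 1 kb, where its difference from other regions was -0.059. Regions called lower in siHK1 numbered 1071 without scaling, 25 at a mean of 20, 86 within 1 kb, 7 among those marked in both, 5 at 4-fold and 868 with no minimum, and those called higher 4, 7, 47, 10, 7 and 749, so that higher calls outnumbered lower ones among regions marked in both and at 4-fold.

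The median of TGF over NC was 4.25 without scaling, 3.10 with totals over regions marked in both, 1.07 on deposited values, 2.22 and 5.24 with pseudocounts of 1 and 0.1, 0.050 at a mean of 20 and 0.85 with both libraries at the NC total, a setting chosen after seeing the data. Regions called lower in TGF were 0 without scaling, 12 with totals over regions marked in both, 22 on deposited values, 32 at a mean of 20, 60 within 1 kb, 14 at 4-fold, 227 with no minimum and 2 at the NC total, and those called higher 1109, 370, 290, 45, 64, 76, 1869 and 1. The log2 of summed promoter reads was 0.44 without Irf7 and 0.63 without the 50 highest regions, both also chosen after seeing the data.

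The promoter share was 3.41% within 1 kb, 6.44% by length, 5.77% of regions marked in both and 5.29% at a mean of 20. The factor overlap was 21.5% at an overlap of at least 50%, 16.4% with factor regions marked in both and 36.6% within 1 kb. Of the 48 named regions, those whose interval excluded 0 and that turned sign without scaling were 9230019H11Rik (-0.59), both at Mir101c (-0.71 and -0.46), Phf21a (-0.46) and Oasl1 (-0.56). With totals over regions marked in both, 1 of the Mir101c regions did (-0.0067). Named regions whose interval included 0, such as Litaf, Igf2 and the Hk1 region at 0.07, also crossed 0 under 1 or both of these scalings, and other regions in the text, such as Hoxc12 and Kcnq1ot1, had fewer reads in siHK1 than in TGF before scaling. No named region moved with the pseudocount. Fewer than 10 reads in both libraries together lay behind 984 of the 5070 regions.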

Other observations

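The chromosomes did not share the promoter H3K9lc regions as they shared the rest of the list. Chromosome 7 held 578 of them (11.4%), against 7.75% of the other H3K9lc regions. Of the 578, 82 lay at vomeronasal receptor genes, 44 at olfactory receptor genes and 43 at Zfp genes. These are values of clustered gene families and were noticed after the data were seen.

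The level of the promoter regions was shifted toward the low end of the list. The lowest quintile of all regions by mean scaled count held 27.0% of the promoter regions and 19.5% of the others, and the highest held 15.8% and 20.3%. In the highest the median ratio of siHK1 over TGF was -0.02 at promoters and -0.04 elsewhere. From the lowest quintile upward, the others had -0.16, -0.31, -0.18 and -0.09 at promoters. Elsewhere they had -0.17, -0.18, -0.18 and -0.09.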
